A study of Homo sapiens with 4 samples.

Results

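The genes described here encode the enzymes that build and remodel triacylglycerol and membrane phospholipids, with 1 choline transporter. They were taken by gene symbol from a list of 40 genes by function, and all 40 were found among the 25343 symbols listed in every library. The study measured RNA from Huh7 and PLC/PRF/5, established human hepatocellular carcinoma lines. In each line, SCD1 (stearoyl-CoA desaturase, listed as SCD) was knocked down with a short hairpin delivered by lentivirus, or a non-target vector control was delivered instead. All 4 cultures were stably transduced and selected with puromycin. There was 1 library in each of the 4 groups, namely Huh7 control, Huh7 knockdown, PLC/PRF/5 control and PLC/PRF/5 knockdown. The labels name a single hairpin, no time after selection and no second culture, and do not say whether the selected cells were a pool or a clone. The question was which genes are expressed differently when SCD is depleted.

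Glycerolipid synthesis starts when a fatty acid is attached to glycerol-3-phosphate and then to lysophosphatidate, which gives phosphatidate. Lipins remove its phosphate to give diacylglycerol, from which DGAT enzymes make triacylglycerol and the Kennedy pathway makes phosphatidylcholine and phosphatidylethanolamine. CDP-diacylglycerol synthases instead activate phosphatidate for phosphatidylinositol and, in mitochondria, for cardiolipin. Lysophospholipid acyltransferases later exchange the acyl chains of finished phospholipids (the Lands cycle). SCD makes the oleate and palmitoleate that many of these enzymes use, and hepatocytes also methylate phosphatidylethanolamine to phosphatidylcholine with PEMT.

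Expression is given as TPM (transcript abundance scaled for transcript length and to a fixed library total), so levels may be compared between genes. Where a line has a pair of values, the control precedes the knockdown. SCD itself stood at 1755 then 137 TPM in Huh7 cells, against 1111 then 178 TPM in PLC/PRF/5 cells, in the direction of the labels. All 10 hepatocyte and hepatoma markers reached 1 TPM in at least 1 library, with a sum of 29713 to 32995 TPM in Huh7 and 3688 to 5559 TPM in PLC/PRF/5. Within that list, TTR (transthyretin) was at 371 and 312 TPM in Huh7 but at 0.41 and 0.16 TPM in PLC/PRF/5. APOB was lower in Huh7, at 1165 and 797 TPM, than in PLC/PRF/5, at 1780 and 1485 TPM, and the liver transcription factor gene HNF4A was at 122 to 192 TPM in the 4 libraries. Endothelial markers summed to at most 3.40 TPM, with 1 of 3 above 1 TPM, and CDH5 was at 0.03 to 0.10 TPM. Leukocyte markers summed to 11.6 to 27.2 TPM, of which CD68 was at 8.76 to 27.0 TPM, with 2 of 4 above 1 TPM, while CD3E was at 0 to 0.05 TPM. Fibroblast markers summed to 7.92 to 14.1 TPM in Huh7, mostly PDGFRB, and to 1.74 to 3.24 TPM in PLC/PRF/5, with 3 of 4 above 1 TPM. Their part in the results below was not tested. Sequencing depth is unknown from TPM, and a level from bulk RNA cannot tell fewer expressing cells from less RNA per cell.

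Across both lines, the phosphatidylcholine-branch kinase gene CHKB, the acyltransferase gene AGPAT3 and the CDP-diacylglycerol synthase gene CDS1 were higher in the knockdown library of each line, and the ethanolamine kinase gene ETNK2 was lower in each. None of the 37 members in the fit passed the across-line test at an adjusted p of 0.05, and the smallest adjusted p was 0.166, for CHKB. SCD itself, the gene knocked down, did not pass either (log2 differences of -3.67 and -2.64, adjusted p = 0.128). A member that did not pass is therefore not shown to be unchanged. The test was limma, with a term for line, on log2(TPM + 1) values of 13813 genes, of which 0.00724% passed after adjustment over all of them. At an unadjusted p under 0.05, 4 members were higher (CHKB, AGPAT3, CDS1 and LPIN3) and 2 lower (ETNK2 and CHKA). Over all genes of the fit, 12.7% were higher and 5.24% lower by that rule, so the members' counts lie near the background. The median difference over both lines was -0.05 for the members and 0.09 for all genes. With 1 library per group, these p-values weigh the mean difference against the gap between the lines and a variance pooled over all genes. They do not measure spread between cultures, and the labels do not give separate cultures within a group.

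**Figure D1:**
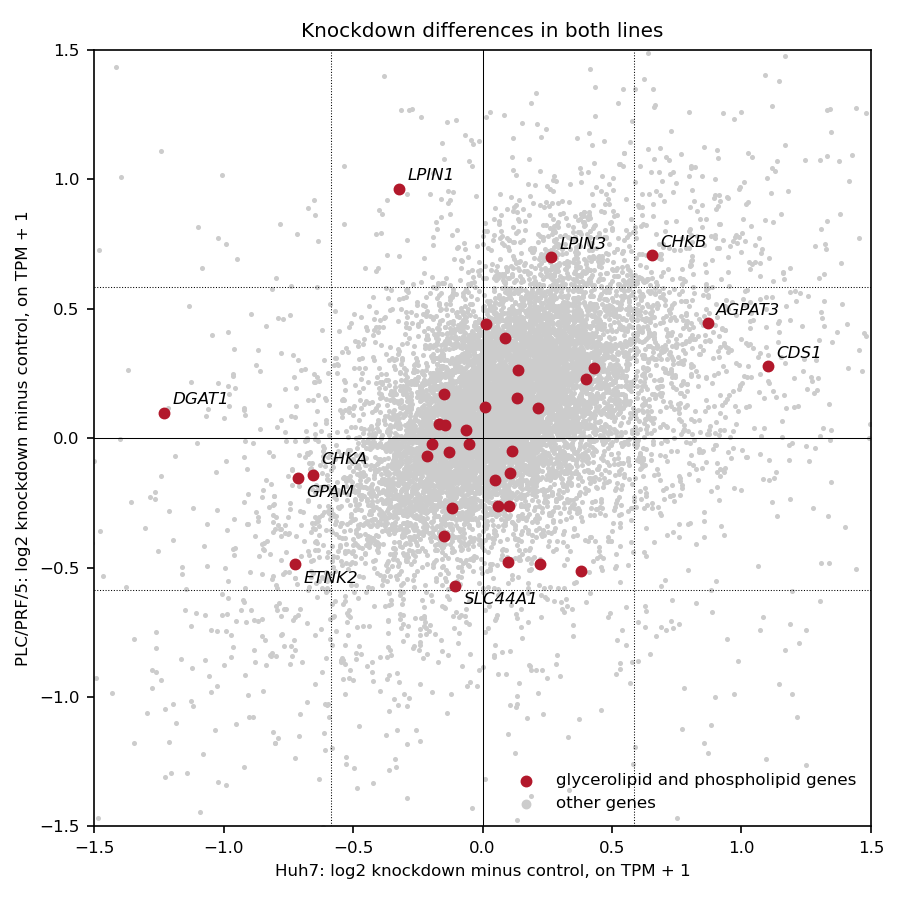
Difference between knockdown and control, in log2 of TPM + 1, in Huh7 (horizontal axis) and PLC/PRF/5 (vertical axis), for the 36 members considered in both lines (red) and the other 12028 genes (grey). Dotted lines mark 1.5-fold, and 172 other genes lie outside the axes. CHKB is the 1 member of the 36 beyond 1.5-fold the same way in both lines, though not in Huh7 with the libraries scaled to equal median ratios. Of all 12064 genes considered in both lines, 270 were higher and 138 lower by as much in each. LPIN1 lies at -0.32 on the Huh7 axis and at 0.96 on the other.

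The promoters of CHKB, ETNK2 and CDS1 are printed because these members have a single annotated start and the largest difference the same way in both lines, ranked by the smaller of the line differences. Each run covers 250 bases before to 50 bases after the start of the gene, from RefSeq on GRCh38.p14, 5′ to 3′ on the strand of the gene. Capitals mark CCAAT on either strand, the letters bound by NF-Y. CHKB lies at chr22:50582800-50583099 on the minus strand, ETNK2 at chr1:204151995-204152294 on the minus strand and CDS1 at chr4:84582877-84583176 on the plus strand.
CHKB: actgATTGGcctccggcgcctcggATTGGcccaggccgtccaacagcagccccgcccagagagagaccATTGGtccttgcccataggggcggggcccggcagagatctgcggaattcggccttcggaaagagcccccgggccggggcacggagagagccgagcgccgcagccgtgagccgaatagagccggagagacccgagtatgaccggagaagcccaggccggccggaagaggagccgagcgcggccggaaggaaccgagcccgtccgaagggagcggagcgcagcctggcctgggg
ETNK2: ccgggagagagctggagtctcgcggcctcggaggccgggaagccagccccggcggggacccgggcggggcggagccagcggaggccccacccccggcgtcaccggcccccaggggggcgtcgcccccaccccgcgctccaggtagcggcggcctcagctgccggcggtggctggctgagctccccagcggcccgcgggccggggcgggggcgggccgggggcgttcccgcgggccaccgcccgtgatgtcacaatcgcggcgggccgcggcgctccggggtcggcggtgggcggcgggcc
CDS1: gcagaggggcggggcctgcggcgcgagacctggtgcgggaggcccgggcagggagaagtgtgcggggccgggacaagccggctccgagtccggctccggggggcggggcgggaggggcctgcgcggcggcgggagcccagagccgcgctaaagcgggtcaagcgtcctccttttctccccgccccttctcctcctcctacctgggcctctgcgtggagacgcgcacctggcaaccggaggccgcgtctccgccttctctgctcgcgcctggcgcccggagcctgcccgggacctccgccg

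The CHKB window held 3 CCAAT matches, all upstream of the start, and the ETNK2 and CDS1 windows held none of the letters searched. AGPAT3 has 2 annotated starts and neither is printed. Promoter windows were found for 31 members, 46 windows in all, and not for AGPAT5, LPIN3, DGAT1, DGAT2, LPCAT2, MBOAT1, CHKA, PTDSS1 and TAZ. CCAAT was in 14 of the 46 windows (30.4%), against 34.6% of all 35116 windows. The E-box CACGTG was in 4 (8.70% against 7.26% of all windows) and TGATGNAA, a form of the amino acid response element bound by ATF4, in 2 (4.35% against 3.62%). TCACNCCAC, a form of the sterol regulatory element bound by SREBP, was in 0 of the 46, against 1.13% of all windows. Both strands were searched, and in the printed windows CCAAT was the pattern that matched, so no patterns overlap there. A match is a match of letters, and whether transcription in these cells begins at the annotated starts was not measured.

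In Huh7, DGAT1 was the member with the largest lower difference and CDS1 the one with the largest higher difference. Of 37 members considered (at least 1 TPM in 1 library of the pair), those 2 differed at least 2-fold, where 4.63% of 13485 genes did. At 1.5-fold, CDS1, AGPAT3 and CHKB were higher, against 9.91% of all genes, and DGAT1, ETNK2, GPAM and CHKA were lower, against 4.86%. The remaining 30 differed by less than 1.5-fold, and the members' median was 0.01 on the log2 scale, against 0.08 for all genes. Within a line these are differences between single libraries, counted by size with no test.

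In PLC/PRF/5, LPIN1, CHKB and LPIN3 were higher by 1.5-fold or more and no member was lower by as much. All genes gave 8.11% higher and 4.02% lower by that rule. On the TPM + 1 scale used for these counts, none of the 38 members considered differed 2-fold, where 2.83% of 13057 genes did, although the TPM of LPIN1 themselves had a ratio of 2.03. The members' median was -0.02, against 0.10 for all genes. Scaling the libraries to equal median ratios lowered the members' log2 differences, by amounts that depend on their level, with shifts between -0.08 and -0.05 for Huh7 cells and between -0.11 and -0.05 for PLC/PRF/5 cells. With it the 1.5-fold members were 2 higher and 5 lower in Huh7, where CHKB left the higher side and AGPAT4 joined the lower side. In PLC/PRF/5 they were 3 higher and 3 lower, where SLC44A1, MBOAT1 and AGPAT2 joined the lower side. The share of all genes at 1.5-fold with the rescaling is not given here. The median of all genes moved as well, to -0.0005 in Huh7 and -0.0016 in PLC/PRF/5, against -0.07 and -0.13 for the members. The rescaling took the higher share of all 2-fold genes from 60.8% to 45.5% in PLC/PRF/5 and from 66.9% to 58.9% in Huh7.

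Both lines could be compared for 36 members, of which 12 were higher with knockdown in each line, 10 lower in each and 14 opposite. With the rescaling these counts were 10, 16 and 10, and those of all genes with it are not given here. Without it, the same direction was seen for 61.1% of members and for 68.8% of the 12064 genes considered in both lines. Of those 12064 genes, 5608 were higher in each line, 2698 lower in each and 3735 opposite.

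**Figure D2:**
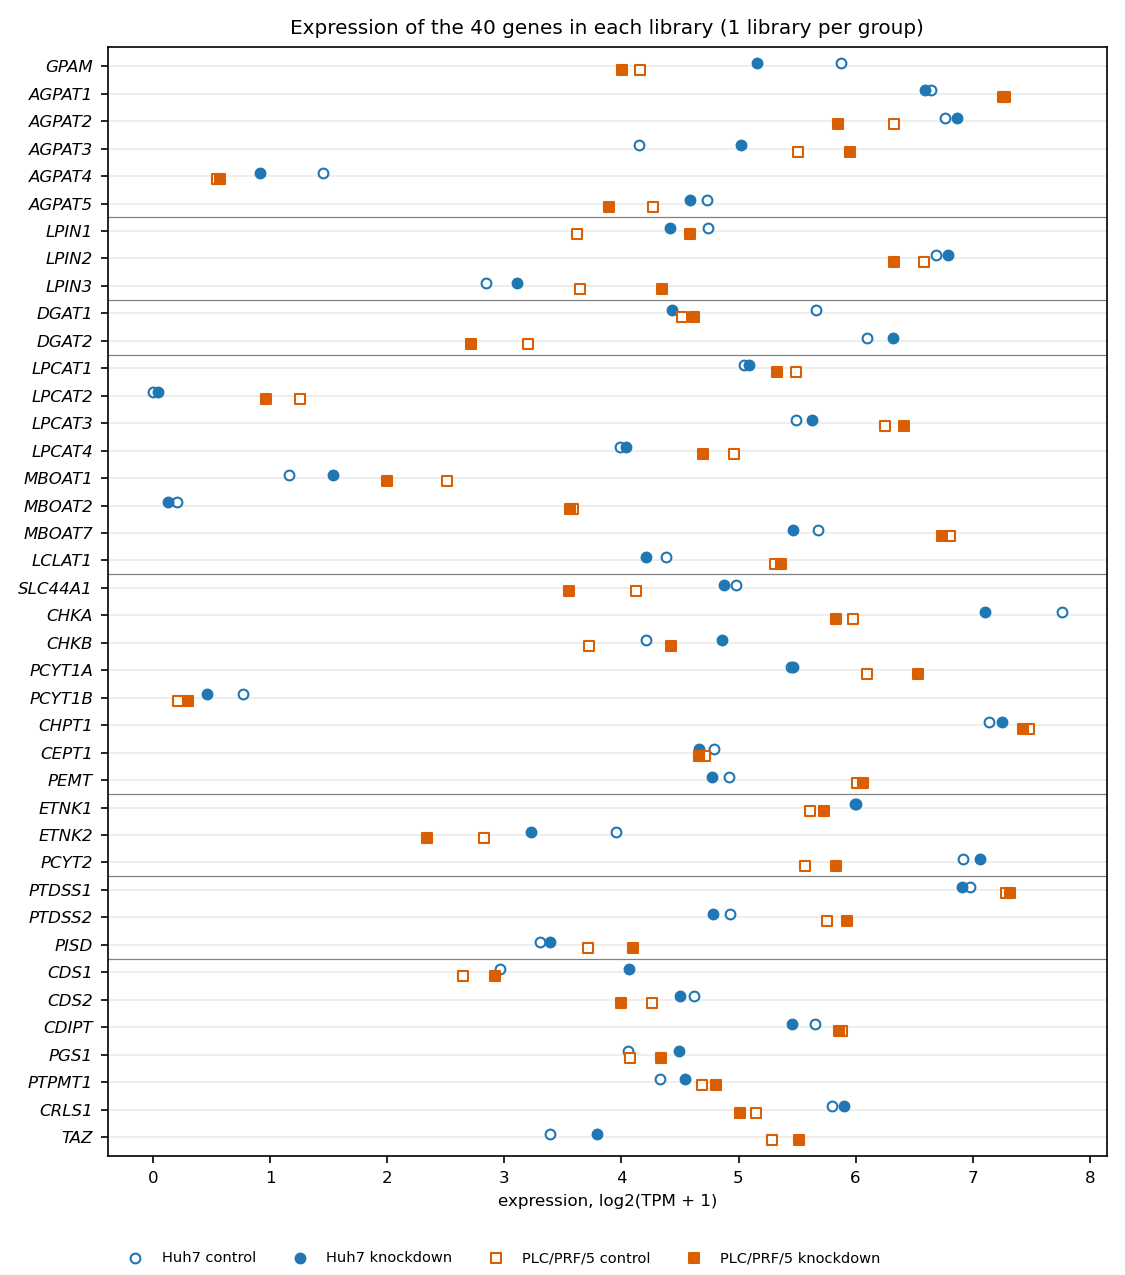
Expression of the 40 genes in log2(TPM + 1), 1 point per library, with circles for Huh7, squares for PLC/PRF/5, open symbols for control and filled symbols for knockdown. Grey lines separate the roles in the order of the text, and the widest gap between circles and squares is that of MBOAT2, at 0.15 and 0.09 TPM in Huh7 against 11.0 and 10.8 TPM.

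Among the enzymes that make phosphatidate, GPAM was lower and AGPAT3 higher in the Huh7 knockdown library, and AGPAT1 differed little in either line. GPAM, the mitochondrial acyltransferase that attaches the first fatty acid to glycerol-3-phosphate, stood at 57.6 TPM in control and 34.7 TPM in knockdown Huh7 cells, against 16.8 then 15.0 TPM in PLC/PRF/5 cells. Both Huh7 libraries stood above both PLC/PRF/5 libraries, and the log2 differences with knockdown were -0.71 and -0.15 (across-line adjusted p = 0.289). AGPAT3, which acylates lysophosphatidate at the ER and Golgi, was at 16.7 then 31.4 TPM in Huh7 cells, against 44.4 then 60.7 TPM in PLC/PRF/5 cells. Its differences were 0.87 and 0.44, with a mean of 0.66 ± 0.15 (SE; adjusted p = 0.181). AGPAT2 is the gene mutated in a congenital generalised lipodystrophy, and AGPAT1 encodes a widely expressed ER enzyme of the same step. AGPAT1 was at 99.1 then 95.6 TPM in Huh7 cells, against 154 then 152 TPM in PLC/PRF/5 cells. AGPAT2 was at 108 then 116 TPM in Huh7 cells, against 79.5 then 56.7 TPM in PLC/PRF/5 cells, with differences of 0.10 and -0.48. AGPAT5, a mitochondrial member, had differences of -0.15 and -0.38. AGPAT4 did not reach 1 TPM in PLC/PRF/5 and was at 1.73 then 0.88 TPM in Huh7, which kept it out of the fit. AGPAT3 made up 6.67% of the summed TPM of AGPAT1 to AGPAT5 in the Huh7 control and 11.8% in the knockdown, and 15.0% and 21.4% in PLC/PRF/5.

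The lipin genes, whose products turn phosphatidate into diacylglycerol and also act as transcriptional coregulators, differed mainly in PLC/PRF/5. LPIN1 stood at 25.7 TPM in control and 20.4 TPM in knockdown Huh7 cells, against 11.3 then 23.0 TPM in PLC/PRF/5 cells. The PLC/PRF/5 control was the low library and the other 3 lay close together. Its log2 differences were -0.32 in Huh7 and 0.96 in PLC/PRF/5, and whether the lines differ in this could not be tested with 1 library per group. LPIN3 was at 6.19 then 7.64 TPM in Huh7 cells, against 11.6 then 19.4 TPM in PLC/PRF/5 cells, differences of 0.27 and 0.70 (mean 0.48, standard error 0.18, adjusted p = 0.277). LPIN2, the lipin with the highest level in every library, was at 102 then 109 TPM in Huh7 cells, against 95.2 then 79.2 TPM in PLC/PRF/5 cells. It made up 76.1% and 79.6% of summed lipin TPM in Huh7, and 80.6% and 65.2% in PLC/PRF/5, where the share of LPIN1 was 9.58% and 18.9%. The sum itself was 134 then 137 TPM in Huh7 cells, against 118 then 122 TPM in PLC/PRF/5 cells.

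The genes for the last step of triacylglycerol synthesis, DGAT1 and DGAT2, differed in the order of their levels between the lines. DGAT1, the ER enzyme that esterifies mainly fatty acids arriving from outside the cell, stood at 49.5 TPM in control and 20.6 TPM in knockdown Huh7 cells, against 21.96 then 23.57 TPM in PLC/PRF/5 cells. The Huh7 control was the high library and the other 3 lay together, and the log2 differences were -1.23 in Huh7 and 0.10 in PLC/PRF/5, or -1.31 and -0.0082 with the rescaling. The mean of -0.57 (standard error 0.33) did not pass (adjusted p = 0.406). DGAT2, which in liver prefers newly made fatty acids, was at 67.5 then 78.8 TPM in Huh7 cells, against 8.22 then 5.58 TPM in PLC/PRF/5 cells. Its differences of 0.22 and -0.49 were opposite in sign. DGAT2 was 57.7% of the summed DGAT TPM in the Huh7 control and 79.3% in the knockdown, and 27.2% and 19.1% in PLC/PRF/5. The sum was 117 then 99.4 TPM in Huh7 cells, against 30.2 then 29.2 TPM in PLC/PRF/5 cells. DGAT1 shares 10.5% of its 31-base sequence words with the gene model AC233992.1, and the strand setting of the counting is not given in the sources used here.

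**Figure D3:**
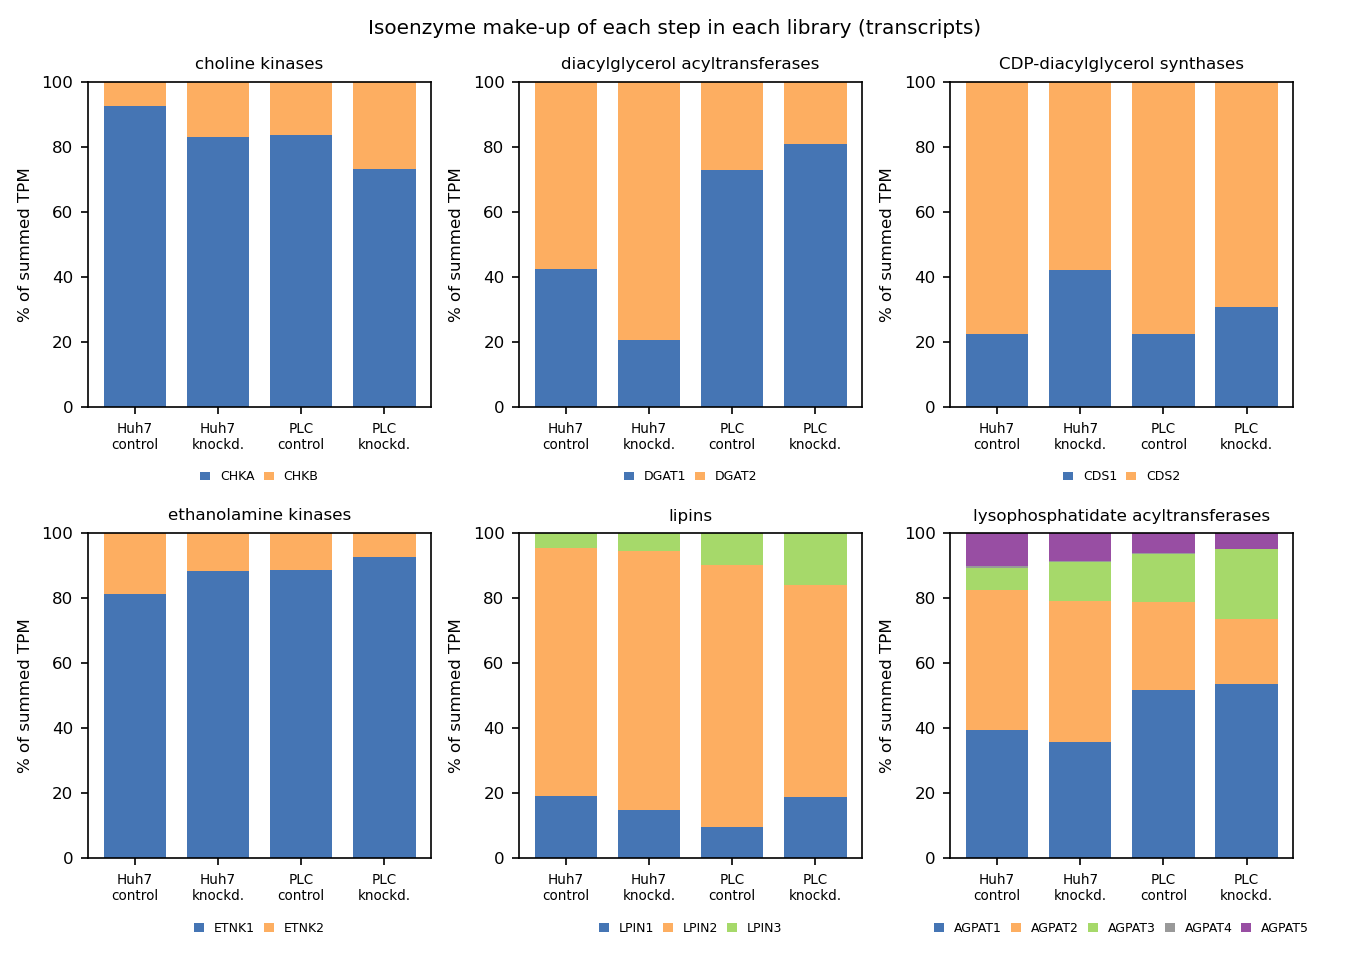
Share of each gene in the summed TPM of the genes for the same step, in percent, by library (PLC stands for PLC/PRF/5, knockd. for knockdown). CHKB and CDS1 take a larger share in the knockdown library of both lines, and DGAT2 takes 57.7% and 79.3% in Huh7 but 27.2% and 19.1% in PLC/PRF/5.

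The lysophospholipid acyltransferases of the Lands cycle that were considered differed by less than 1.5-fold with knockdown in either line, on the TPM + 1 scale. The TPM of MBOAT1 themselves had knockdown to control ratios of 1.54 in Huh7 and 0.636 in PLC/PRF/5. Differences of the 6 members considered in Huh7 ran from -0.21 (MBOAT7) to 0.38 (MBOAT1), and of all 8 in PLC/PRF/5 from -0.51 (MBOAT1) to 0.16 (LPCAT3). LPCAT3, which places polyunsaturated chains into phosphatidylcholine and phosphatidylethanolamine, was at 43.9 then 48.3 TPM in Huh7 cells, against 75.2 then 84.0 TPM in PLC/PRF/5 cells. Its differences of 0.13 and 0.16 were alike, with a mean of 0.15 ± 0.10 (SE; adjusted p = 0.453). MBOAT7, which puts arachidonate into phosphatidylinositol, was at 50.1 then 43.1 TPM in Huh7 cells, against 111 then 106 TPM in PLC/PRF/5 cells. LPCAT1, an enzyme that makes saturated phosphatidylcholine, was at 32.0 then 33.1 TPM in Huh7 cells, against 43.9 then 39.1 TPM in PLC/PRF/5 cells. LPCAT4, a further lysophospholipid acyltransferase, had differences of 0.06 and -0.26. LCLAT1, which acylates lysocardiolipin, had differences of -0.17 and 0.05. MBOAT1, an acyltransferase for lysophosphatidylserine and lysophosphatidylethanolamine, was at 1.23 then 1.90 TPM in Huh7 cells, against 4.70 then 2.99 TPM in PLC/PRF/5 cells, opposite in direction and low in Huh7. MBOAT2, its closest relative, was at 0.15 then 0.09 TPM in Huh7 cells, against 11.0 then 10.8 TPM in PLC/PRF/5 cells. LPCAT2, which also makes platelet-activating factor, was listed at 0 then 0.03 TPM in Huh7 cells, against 1.39 then 0.95 TPM in PLC/PRF/5 cells, too low for the fit.

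In the phosphatidylcholine branch of the Kennedy pathway, the choline kinase genes differed in opposite directions. CHKA, the kinase that commits choline to this pathway, stood at 216 TPM in control and 137 TPM in knockdown Huh7 cells, against 61.9 then 56.1 TPM in PLC/PRF/5 cells. Its log2 differences were -0.65 and -0.14, with a mean of -0.40 ± 0.15 (SE; adjusted p = 0.269). CHKB, the second choline kinase gene, was at 17.5 then 28.1 TPM in Huh7 cells, against 12.2 then 20.5 TPM in PLC/PRF/5 cells. Both knockdown libraries stood above both controls, with differences of 0.66 and 0.71, a mean of 0.68 and a standard error of 0.13. CHKB was 7.49% of summed choline kinase TPM in the Huh7 control and 17.0% in the knockdown, and 16.4% and 26.8% in PLC/PRF/5, while the sum was 233 then 165 TPM in Huh7 cells, against 74.1 then 76.5 TPM in PLC/PRF/5 cells. The CHKB values are uncertain because 87.6% of its sequence words also occur in the readthrough gene CHKB-CPT1B. That gene was at 1.16 then 2.34 TPM in Huh7 cells, against 0.48 then 0.86 TPM in PLC/PRF/5 cells. CPT1B, the neighbour at the other end of the readthrough, was at 9.22 then 13.7 TPM in Huh7 cells, against 5.03 then 7.23 TPM in PLC/PRF/5 cells, also higher in both knockdown libraries (0.52 and 0.45). The part of the readthrough in the CHKB values was not tested.

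Of the other genes of this branch, SLC44A1 was lower and PCYT1A higher in the PLC/PRF/5 knockdown, each by less than 1.5-fold on the TPM + 1 scale. SLC44A1, a choline transporter, was at 30.6 then 28.4 TPM in Huh7 cells, against 16.4 then 10.7 TPM in PLC/PRF/5 cells, with differences of -0.11 and -0.57. PCYT1A, the gene of the rate-limiting enzyme of phosphatidylcholine synthesis, was at 42.7 then 43.1 TPM in Huh7 cells, against 67.3 then 91.8 TPM in PLC/PRF/5 cells, with differences of 0.01 and 0.44. Neither gene passed the across-line test (adjusted p = 0.355 and 0.422). PCYT1B, its isoform gene, stayed between 0.16 and 0.70 TPM and entered neither the fit nor a count by size. CHPT1, which transfers phosphocholine to diacylglycerol, had the highest mean level of the 40 genes, at 140 then 151 TPM in Huh7 cells, against 177 then 171 TPM in PLC/PRF/5 cells. CEPT1, which uses either head group, was at 24.3 to 26.7 TPM in all 4 libraries, a narrow range. PEMT was at 29.3 then 26.4 TPM in Huh7 cells, against 63.6 then 65.9 TPM in PLC/PRF/5 cells.

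In the phosphatidylethanolamine branch, ETNK2 was lower in both knockdown libraries while PCYT2 was higher in both. ETNK2, an ethanolamine kinase gene with high expression in liver, was at 14.5 then 8.39 TPM in Huh7 cells, against 6.08 then 4.05 TPM in PLC/PRF/5 cells. Its differences were -0.72 and -0.49, with a mean of -0.61 ± 0.17 (SE; adjusted p = 0.214). The order of the 4 libraries followed the line first, with both Huh7 levels above both PLC/PRF/5 levels. ETNK1, the more widely expressed kinase, was at 62.9 then 63.2 TPM in Huh7 cells, against 47.7 then 52.0 TPM in PLC/PRF/5 cells. ETNK2 accordingly was 18.8% then 11.7% of summed ethanolamine kinase TPM in Huh7 cells, against 11.3% then 7.23% in PLC/PRF/5 cells. PCYT2, which makes CDP-ethanolamine, was at 120 then 132 TPM in Huh7 cells, against 46.5 then 56.0 TPM in PLC/PRF/5 cells, differences of 0.14 and 0.26 (adjusted p = 0.343).

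The phosphatidylserine genes showed small differences. PTDSS1, which exchanges the head group of phosphatidylcholine for serine, was at 125 then 119 TPM in Huh7 cells, against 155 then 158 TPM in PLC/PRF/5 cells. PTDSS2, which does the same from phosphatidylethanolamine, had differences of -0.15 and 0.17. PISD, the mitochondrial decarboxylase that turns phosphatidylserine into phosphatidylethanolamine, was at 8.90 then 9.51 TPM in Huh7 cells, against 12.1 then 16.1 TPM in PLC/PRF/5 cells, differences of 0.09 and 0.38. Their across-line adjusted p-values were 0.939, 0.972 and 0.474, which does not show that the levels were equal.

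Among the genes that lead from phosphatidate to phosphatidylinositol and cardiolipin, CDS1 differed by over 2-fold in Huh7 and less in PLC/PRF/5. CDS1, a CDP-diacylglycerol synthase gene, stood at 6.82 TPM in control and 15.8 TPM in knockdown Huh7 cells, against 5.26 then 6.59 TPM in PLC/PRF/5 cells. The Huh7 knockdown was the high library and the other 3 lay between 5.26 and 6.82 TPM. The differences were 1.10 and 0.28, with a mean of 0.69 ± 0.25 (SE; adjusted p = 0.265). CDS2, the isoform gene with the higher level in every library, was at 23.6 then 21.6 TPM in Huh7 cells, against 18.2 then 14.9 TPM in PLC/PRF/5 cells, slightly lower with knockdown in each line (-0.12 and -0.27). CDS1 made up 22.4% of the summed CDS TPM in each control library, 42.2% in the Huh7 knockdown and 30.6% in the PLC/PRF/5 knockdown. CDIPT, the phosphatidylinositol synthase gene, had differences of -0.20 and -0.02.

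Of the cardiolipin genes, PGS1, PTPMT1 and TAZ were higher in the knockdown library of both lines by less than 1.5-fold. Of all genes, 60.2% were higher in Huh7 and 63.4% in PLC/PRF/5. PGS1, which makes phosphatidylglycerol phosphate and commits lipid to cardiolipin, was at 15.7 then 21.5 TPM in Huh7 cells, against 15.8 then 19.3 TPM in PLC/PRF/5 cells. Both knockdown libraries stood above both controls, with differences of 0.43 and 0.27 and an adjusted p = 0.283. TAZ is here the tafazzin gene, whose product remodels the acyl chains of cardiolipin and which is distinct from the YAP partner of the same nickname. It was at 9.46 then 12.8 TPM in Huh7 cells, against 38.0 then 44.7 TPM in PLC/PRF/5 cells, differences of 0.40 and 0.23. PTPMT1, the phosphatase after PGS1, had differences of 0.21 and 0.12, and 38.6% of its sequence words also occur in transcripts assigned to its neighbour NDUFS3, which was at 108 to 126 TPM. CRLS1, the cardiolipin synthase gene, was at 54.5 then 58.7 TPM in Huh7 cells, against 34.5 then 31.3 TPM in PLC/PRF/5 cells, opposite in direction. With the rescaling the PLC/PRF/5 differences were 0.17 for PGS1, 0.12 for TAZ and 0.0098 for PTPMT1.

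More members passed for the difference between the lines than for knockdown. In the limma fit, 27 of 37 members passed for the difference between Huh7 and PLC/PRF/5 at an adjusted p of 0.05, 12 higher in Huh7 and 15 higher in PLC/PRF/5. The background was 28.3% of all genes higher in Huh7 and 31.5% higher in PLC/PRF/5. The median size of the difference was 0.77 for members and 0.57 for all genes on the log2 scale. The filter let in 1749 of the 13813 genes, and 1 of the 37 members, only through the libraries of 1 line. For such genes the filter fixed the direction of the difference, and they are kept in these counts. Passing differences of at least 2-fold were seen for 13 members (35.1%) and for 29.3% of all genes. These p-values rest on how alike the line difference was in both arms and on a variance pooled over all genes, not on replicate cultures. Without the filter on low values no member passed, and without the arm term 7 were higher in Huh7.

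On the Huh7 side, the largest difference was that of DGAT2, at 3.25 with a standard error of 0.20 (adjusted p = 5.9e-04), or 2.89 between the controls and 3.60 between the knockdown libraries. CHKA followed at 1.53 (adjusted p = 0.0015), GPAM at 1.44 (adjusted p = 0.0027), PCYT2 at 1.29 (adjusted p = 8.3e-04) and SLC44A1 at 1.09 (adjusted p = 0.0053). Each of these 5 was higher in Huh7 in both arms. Other genes of the same branches passed in the other direction, among them PCYT1A (-0.86) and PEMT.

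On the PLC/PRF/5 side, MBOAT2 had the largest difference, at -3.41 with a standard error of 0.19 (adjusted p = 4.6e-04). MBOAT2 passed the filter only through its PLC/PRF/5 libraries, so the filter fixed the direction and this p-value is not independent of it. TAZ followed at -1.81 (adjusted p = 8.0e-04), MBOAT7 at -1.20 (adjusted p = 0.0011), PEMT at -1.19 (adjusted p = 0.0015) and AGPAT3 at -1.14 (adjusted p = 0.0032). Other lysophospholipid acyltransferase genes that passed as higher in PLC/PRF/5, where 31.5% of all genes did, were LPCAT3 (-0.77), LPCAT4 (-0.82), LCLAT1 (-1.04) and MBOAT1 (-0.91). MBOAT1 did not pass with the rescaling (adjusted p = 0.0501), and LPCAT1 did not pass (-0.34, adjusted p = 0.0608). Of the lipins LPIN3 passed (-1.02), and LPIN1 and LPIN2 did not (adjusted p = 0.258 and 0.109). LPIN1 and DGAT1 were higher in Huh7 between the controls (1.12 and 1.14) and slightly lower in Huh7 between the knockdown libraries (-0.17 and -0.19).

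**Figure D4:**
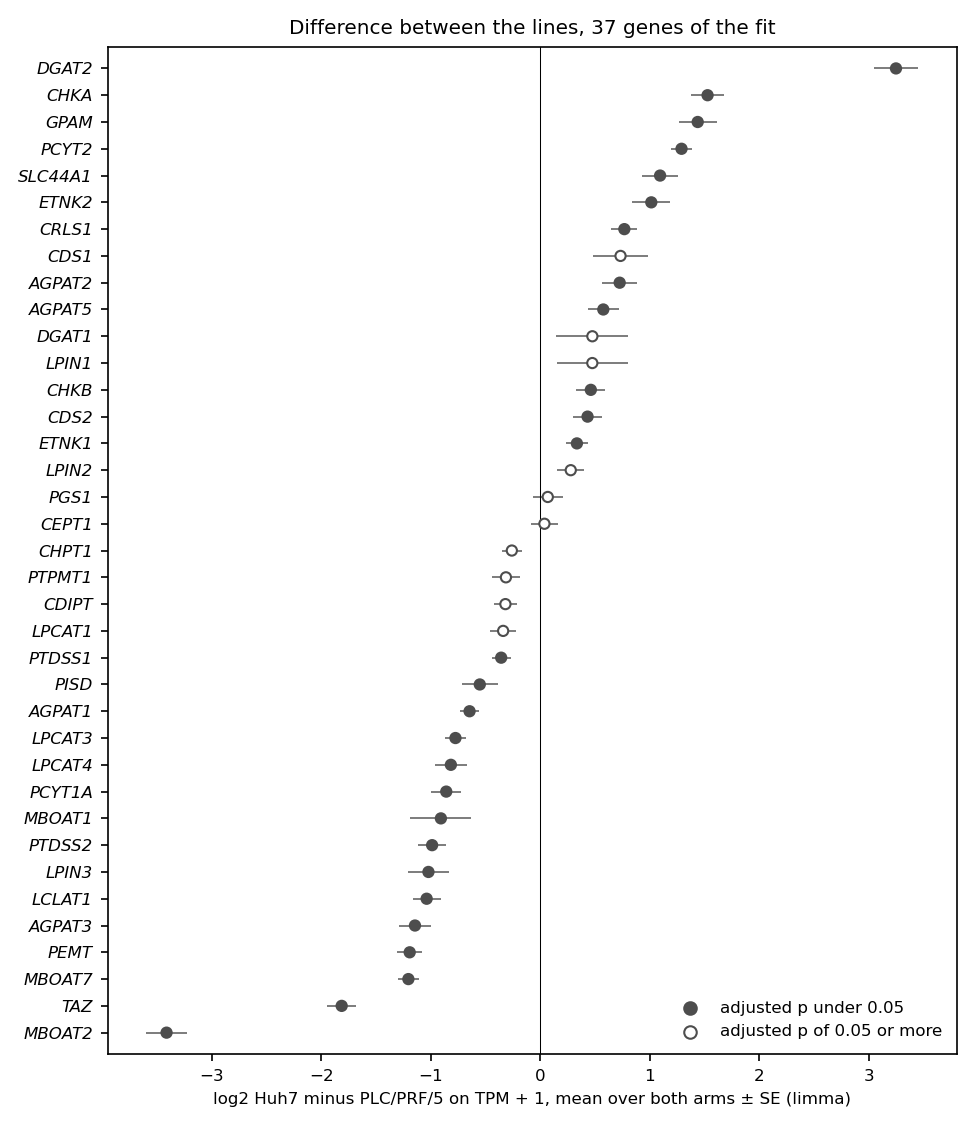
Difference between Huh7 and PLC/PRF/5 in log2 of TPM + 1, averaged over the control and knockdown arms, with the standard error from limma, for the 37 members in the fit. Filled points passed at an adjusted p under 0.05, and DGAT2 (3.25) and MBOAT2 (-3.41) lie at the ends. MBOAT2 passed the filter only through its PLC/PRF/5 libraries, which fixed its direction.

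Other genes of the pathway, a list of 62 by function that includes SCD, gave 0 across-line calls among the 55 in the limma fit. At an unadjusted p under 0.05, 7 were higher and 6, including SCD, were lower, against 12.7% and 5.24% of all genes. Their median difference was 0.05. Of the 12064 genes considered in both lines, 138 were lower by at least 1.5-fold in each. Beside SCD, SLC44A2 was the 1 gene lower by as much among the 51 of the list considered in both lines. This relative of the choline transporter SLC44A1 was at 14.7 then 4.36 TPM in Huh7 cells, against 12.6 then 4.13 TPM in PLC/PRF/5 cells (adjusted p = 0.129). Another family member, SLC44A3, was at 14.1 then 38.1 TPM in Huh7 cells, against 46.2 then 61.6 TPM in PLC/PRF/5 cells, higher in both knockdown libraries. AGPAT9, now named GPAT3, an ER counterpart of GPAM, was at 5.08 then 16.9 TPM in Huh7 cells, against 38.8 then 50.2 TPM in PLC/PRF/5 cells, opposite to GPAM with differences of 1.56 and 0.36 (adjusted p = 0.230). AGPAT6, now GPAT4, was at 50.3 then 59.6 TPM in Huh7 cells, against 42.2 then 48.3 TPM in PLC/PRF/5 cells. PPAP2C, a membrane lipid phosphatase gene now named PLPP2, was at 0.54 then 4.83 TPM in Huh7 cells, against 209 then 219 TPM in PLC/PRF/5 cells.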

How the data were processed

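RNA was sequenced from 4 cultures, grouped by sample title into 4 groups of 1 library. The authors deposited TPM per gene symbol, rounded to 2 decimals, per the file headers and values. Tools named in the submitters' processing notes are RSEM 1.2.21 and cutadapt, with build hg19. For aligner, annotation and strandedness, nothing is given in the sources used here. TPM fixes each library's total, so abundant genes move all others, and it carries no depth, so no counting error was computed.

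Differences within a line were the difference of log2(TPM + 1) between knockdown and control, which understates low genes, counted at 1.5-fold and 2-fold among genes with at least 1 TPM in the pair. The across-line and line differences came from limma 3.58.1 (R 4.3.3), run on the same log2 values over 13813 genes with at least 1 TPM in at least 2 libraries, with terms for line and arm, a variance trend, 1 residual degree of freedom (3.71 prior), 2-sided, Benjamini-Hochberg over all genes, threshold 0.05. The fit was also run on simulated data drawn from its own variance prior, which cannot show whether that prior suits these data. Members AGPAT4, LPCAT2 and PCYT1B did not pass the filter of the fit.

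Members and lists were chosen with earlier results of these data known. Every member is named, with all values for those 1.5-fold different in a line, at the ends of the line comparison or of the highest level. SLC44A3 and AGPAT6 were named after their values were seen. Shared sequence is the percentage of 31-base words of the longest coding transcript found in another gene (GENCODE 29, another build, sequence only). Alternatives were pseudocounts 0.1 and 5, a filter at 5 TPM or none, median-ratio rescaling, no variance trend, and no line or arm term. Plots used matplotlib 3.10.9.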

Additional observations from a re-analysis of the deposited data

Results flagged for a closer look

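LPIN1 and DGAT1 had differences of opposite sign in the lines, of at least 1.5-fold in 1 of them. The knockdown difference in Huh7 minus that in PLC/PRF/5, on the log2 scale, was -1.29 for LPIN1 (-0.32 and 0.96) and -1.33 for DGAT1 (-1.23 and 0.10). The difference between the lines was not tested, since each line has 1 library per arm. With median-ratio rescaling the DGAT1 differences were -1.31 and -0.0082, no longer opposite in sign, while those of LPIN1 were -0.40 and 0.86.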

How the results depend on the processing

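No member passed the across-line test under any of the 7 alternatives run, including the fit without the cell line as replicate block, in which 0 were called higher and 0 lower. The sign of the mean difference changed for 3 members with median-ratio rescaling, to -0.0659 for CHPT1, -0.0315 for ETNK1 and -0.0844 for PTDSS2. For the line comparison, the number passing went from 12 to 0 higher and from 15 to 0 lower in Huh7 without a filter. It went to 7 higher without the arm term. Without a filter the estimates for DGAT2 and MBOAT2 stayed at 3.25 and -3.41. That fit took 25343 genes and had 0.677 prior degrees of freedom, against 3.71 in the main fit. The cause of these changes in number was not tested. In Huh7, the count 2-fold higher was 0 with a pseudocount of 5. In PLC/PRF/5, 1 member was 2-fold higher and 2 were 1.5-fold lower with a pseudocount of 0.1. There, 1 was 1.5-fold higher with a pseudocount of 5, and 3 were 1.5-fold lower with rescaling. CHKB was under 1.5-fold in both lines with a pseudocount of 5, and in Huh7 with rescaling. The members' median became -0.0678 in Huh7 with rescaling, and 0.0052 and 0.0037 in PLC/PRF/5 with a filter of 5 TPM and with none. No library could be left out within a group of 1, and no depth is known.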
